A study of Mus musculus with 4 samples.

Results

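Which endothelial cells of injured Achilles tendon carry transcripts that let leukocytes attach, and in which library? Expression of 9 mouse genes of leukocyte adhesion (Glycam1, Madcam1, Sele, Selp, Icam1, Vcam1, Ackr1, Podxl and Cd34) was described, out of 27040 genes shared by all feature lists. They were chosen by symbol, or by gene identifier in the Prox1 eGFP day 7 library, with earlier results of these data in view, so their levels are a description and no test was made of them. The 4 droplet single-cell libraries, 1 per group, were Vegfc CRE at day 7 and Prox1 eGFP at days 0, 7 and 21. The tissue of days 7 and 21 carried an injury that the labels abbreviate B/T, and the day 0 tissue was untreated. Each library pooled cells of 5 Achilles tendons, digested with collagenase and dispase. Prox1 encodes a transcription factor that lymphatic endothelium needs, and eGFP makes cells fluoresce; how the CRE recombinase was used with Vegfc, a lymphatic growth factor, is not given in the sources used here. The protocol describes a flow sort for cells expressing Prox1, while another label calls the cells unsorted, so line and sort cannot be told apart between Vegfc CRE and Prox1 eGFP, and a sort could set the cell numbers of every library.

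Leukocytes leave the blood in steps. They first roll on selectins and on sialylated mucins that L-selectin binds, then stop on immunoglobulin-family ligands of integrins, and then cross the vessel wall. In lymph nodes the high endothelial venules carry glycosylated sialomucins for L-selectin, and in inflamed tissue venules raise selectins and integrin ligands in response to cytokines that signal through NF-kappaB. Glycam1 encodes a secreted mucin-like ligand of L-selectin best known from mouse lymph node venules, Madcam1 the mucosal addressin bound by the integrin α4β7 and L-selectin, and Cd34 and Podxl transmembrane sialomucins that can carry L-selectin ligands. Sele and Selp encode E-selectin and P-selectin, Icam1 and Vcam1 ligands of leukocyte integrins, and Ackr1 an atypical chemokine receptor of venular endothelium that binds chemokines without G-protein signalling.

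All 9 are protein-coding genes of the mm10 build, by the GENCODE annotation of that assembly, with the span given from the first to the last annotated base. Glycam1 (ENSMUSG00000022491) lies at chr15:103562759-103565081 on the minus strand and Madcam1 (ENSMUSG00000020310) at chr10:79664559-79668537 on the plus strand. Sele (ENSMUSG00000026582, chr1:164048234-164057677, plus) and Selp (ENSMUSG00000026580, chr1:164115264-164150026, plus) lie on the same strand of 1 chromosome. Icam1 (ENSMUSG00000037405) lies at chr9:21015985-21028817 on the plus strand and Vcam1 (ENSMUSG00000027962) at chr3:116109949-116129688 on the minus strand. Ackr1 (ENSMUSG00000037872) lies at chr1:173331886-173333750 on the minus strand and overlaps Cadm3 on the same strand, so its counts are uncertain. Podxl (ENSMUSG00000025608) lies at chr6:31519488-31563981 on the minus strand and Cd34 (ENSMUSG00000016494) at chr1:194938819-194961279 on the plus strand.

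Promoter windows from RefSeq (GRCm38.p6), from 250 bases before to 50 after the gene start, were matched for 7 of the 9 genes, not for Vcam1 and Podxl. Glycam1, Madcam1 and Sele transcripts were mostly endothelial at day 7 in the results below, and those of Glycam1 and Madcam1 sat in few cells. For that reason their 3 windows are shown here. They run 5′ to 3′ on the gene's own strand, and capitals mark a match to the NF-kappaB consensus or to TATAAA, each searched on both strands.
Glycam1 (chr15:103565032-103565331, minus): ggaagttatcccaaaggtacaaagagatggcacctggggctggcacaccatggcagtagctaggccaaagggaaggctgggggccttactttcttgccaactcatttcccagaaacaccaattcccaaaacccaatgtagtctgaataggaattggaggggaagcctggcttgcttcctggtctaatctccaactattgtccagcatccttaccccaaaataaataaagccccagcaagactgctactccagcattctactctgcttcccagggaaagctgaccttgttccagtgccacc
Madcam1 (chr10:79664309-79664608, plus): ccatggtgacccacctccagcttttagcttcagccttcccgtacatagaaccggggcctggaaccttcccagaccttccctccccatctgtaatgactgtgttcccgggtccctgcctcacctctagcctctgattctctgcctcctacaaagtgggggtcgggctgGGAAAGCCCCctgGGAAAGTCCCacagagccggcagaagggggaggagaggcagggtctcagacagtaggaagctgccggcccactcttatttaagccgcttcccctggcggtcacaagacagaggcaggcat
Sele (chr1:164047984-164048283, plus): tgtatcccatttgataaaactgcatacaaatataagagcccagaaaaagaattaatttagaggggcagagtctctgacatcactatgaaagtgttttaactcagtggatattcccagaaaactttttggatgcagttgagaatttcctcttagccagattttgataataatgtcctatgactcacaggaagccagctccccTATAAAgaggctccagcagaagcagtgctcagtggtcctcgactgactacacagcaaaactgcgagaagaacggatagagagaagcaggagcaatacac
The Glycam1 window held neither motif. Madcam1 held 2 matches to the NF-kappaB consensus, both on the minus strand and starting 83 and 70 bases before the RefSeq start, and Sele held TATAAA starting 49 bases before its start. Among the 7 windows, 1 held the NF-kappaB consensus and 2 (Sele and Icam1) held TATAAA, against 8.46% and 13.6% of 32851 promoters of the same length. These matches describe letters and not binding, and a window without a match says nothing about a factor.

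After filtering, 18834 cells remained, with 6970 in Vegfc CRE day 7 and 689, 4872 and 6303 in Prox1 eGFP days 0, 7 and 21. The deposited matrices held 92568978 unique molecular identifiers (UMIs, 1 per captured transcript) in Vegfc CRE and 6761289, 59312181 and 59894792 in Prox1 eGFP days 0, 7 and 21, and the median per kept cell ran from 7059 to 8503.5. Pairs of libraries shared at most 10 kept cell barcodes. Cells were clustered without the 9 genes, and clusters were named from fixed markers. Lymphatic-type endothelium (marker genes such as Prox1, Flt4 and Lyve1) formed a Clca3a1-led cluster, a Lyve1-led cluster and a dividing cluster, with 10, 10 and 8 of the 10 lymphatic markers in that order. Blood endothelium formed a venous-type cluster led by Fam167b, Vwf, Tmem252 and Aplnr with 9 of 9 venous markers, and a Timp4 capillary and arterial-type cluster with 13 of 15. Lymphatic cells numbered 8 in Vegfc CRE and 3, 991 and 1916 in Prox1 eGFP days 0, 7 and 21, venous-type cells 498 in Vegfc CRE and 7, 29 and 62 in Prox1 eGFP days 0, 7 and 21, and Timp4 cells 179 in Vegfc CRE and 0, 4 and 57 in Prox1 eGFP days 0, 7 and 21. Levels are UMIs of a gene per 1000000 UMIs of the cell class (CPM). With 1 library a group there is no spread between animals, no p-value is given, and every interval is a 95% interval for counting error only.

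The 9 genes fell into genes of endothelium and genes of several tissues. In Prox1 eGFP day 7, endothelial classes held 99.5% of the Glycam1 UMIs, 97.7% of Madcam1, 97% of Sele, 95.4% of Selp, 98.6% of Podxl and 84% of Ackr1. Stroma held 95.3% of Vcam1 UMIs and 80.6% of Cd34 UMIs there. Stroma here joins fibroblasts, tenocytes, mural cells and Schwann cells with muscle progenitor cells and mature muscle. Muscle progenitor cells of Prox1 eGFP day 7 held 20143 of the 20377 stromal Vcam1 UMIs. In Vegfc CRE, Glycam1, Sele, Selp, Podxl and Ackr1 were again mostly endothelial, with 94.5%, 95.3%, 90.7%, 96.6% and 80.5% of their UMIs, whereas leukocytes held 52.9% of Icam1 UMIs. These shares follow the number of cells of each class in a library. Levels per class are drawn in the plot of the 9 genes by endothelial class.

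**Figure D1:**
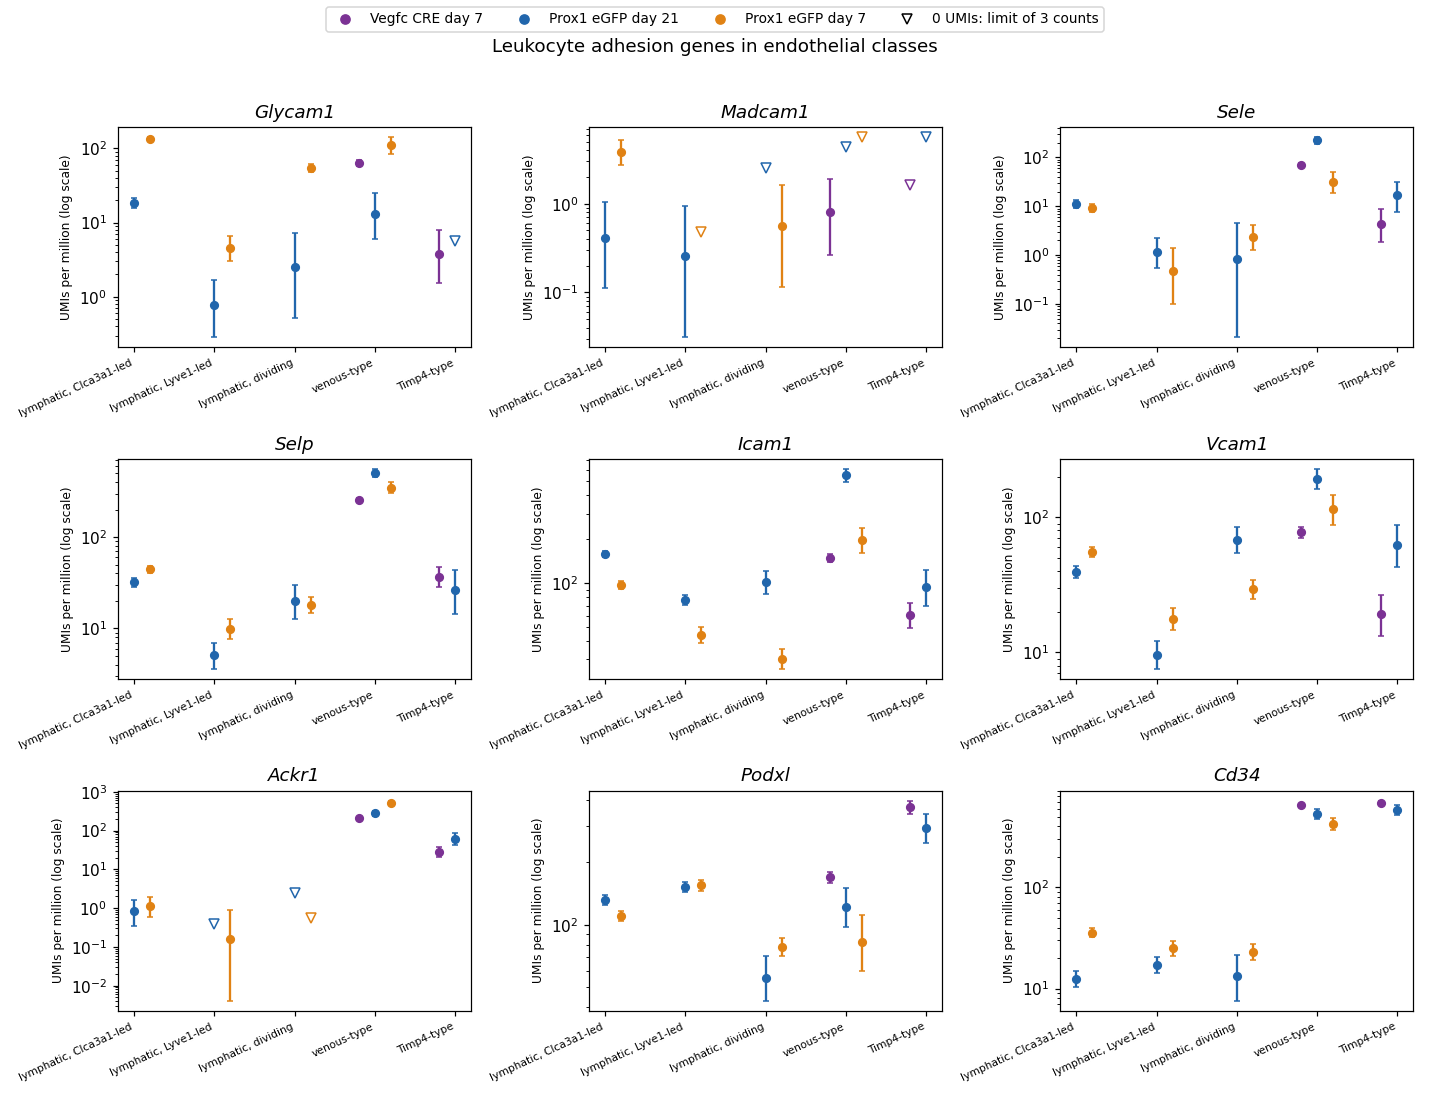
Level of each of the 9 genes (CPM, log axis) in 5 endothelial classes by library, for groups of at least 25 cells; points are summed UMIs scaled to CPM, bars are exact Poisson 95% intervals, and open triangles are the limit given by a count of 0. Glycam1 reached 134 CPM in Clca3a1-led lymphatic cells of day 7 against 18.5 CPM at day 21, while Sele, Selp and Ackr1 were highest in venous-type cells and Podxl in Timp4 cells.

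Among the ligands of L-selectin, Glycam1 differed widely between days 21 and 7. In Clca3a1-led lymphatic cells it had 181 UMIs in 988 cells at day 21, against 1414 UMIs in 534 cells at day 7, or 18.5 CPM (15.9 to 21.4) against 134 CPM (127 to 141). The day 21 level was 7.22-fold lower (6.18 to 8.48). Few cells carried these transcripts: a Glycam1 UMI was found in 60 cells at day 21 (6.07%) and in 75 cells at day 7 (14.0%). Cells were deeper at day 7, with a median of 9339 UMIs per cell at day 21 and 18968 at day 7, and after thinning every cell to 2000 UMIs the shares were 2.45% at day 21 and 6.95% at day 7. The top cell held 22 UMIs at day 21 and 289 at day 7, and the 10 top cells held 57.5% of the UMIs at day 21 and 59.6% at day 7. With these 10 cells left out of each library the log2 ratio was -2.80, and with the top cell left out it was -2.71, next to -2.85 with all cells.

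**Figure D2:**
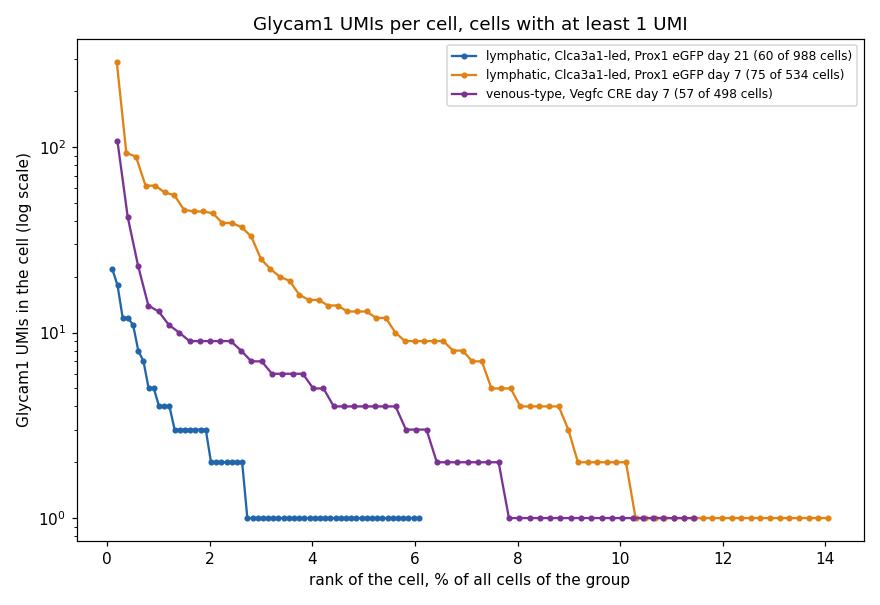
Glycam1 UMIs per cell (log axis) against the rank of the cell, in percent of all cells of its group, for Clca3a1-led lymphatic cells of Prox1 eGFP days 21 and 7 and for venous-type cells of Vegfc CRE day 7; cells with no UMI are not drawn. A UMI was found in 60 of 988, 75 of 534 and 57 of 498 cells, and the highest cell of the day 7 Clca3a1-led group held 289 UMIs.

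Other cells of the same libraries give the background that free RNA can leave. In muscle progenitor cells of day 7, which should lack the gene, 8 Glycam1 UMIs were found in 8 of 3625 cells (0.221%), and at day 21 there were 2 UMIs in 3450 cells. Among stromal groups of at least 30 cells the highest Glycam1 level was 1.57 CPM, and 8 of 12 such groups had none. The highest leukocyte level, 18.8 CPM in dendritic cells of day 0, came from 13 UMIs in 1 cell.

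The Glycam1 level also differed among lymphatic cells of the same library. Clca3a1-led cells were 23.8-fold (10.7 to 65.7) above Lyve1-led cells at day 21 and 29.7-fold (20.5 to 44.9) above them at day 7. Lyve1-led cells had 6 UMIs at day 21 and 28 at day 7, of which 24 were in 1 cell. In dividing lymphatic cells there were 3 UMIs in 57 cells at day 21 and 293 UMIs in 114 cells at day 7, or 2.49 against 54.4 CPM, a level 21.9-fold lower at day 21 (7.42 to 107). The dividing cells differed in depth too, with a median of 20362 UMIs per cell at day 21 and 47613.5 at day 7. Over the whole lymphatic class Glycam1 stood at 10.2 CPM at day 21 and 78.3 CPM at day 7, 7.7-fold lower at day 21 (6.62 to 8.99).

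In blood endothelium Glycam1 was found in venous-type cells. Vegfc CRE day 7 had 392 Glycam1 UMIs in 498 venous-type cells, or 63.6 CPM (57.5 to 70.2), with a UMI in 57 cells (11.4%) and 108 UMIs in the top cell. Prox1 eGFP day 7 had 59 UMIs in 29 such cells (111 CPM, 84.4 to 143), and day 21 had 9 UMIs in 62 cells (13.1 CPM, 5.98 to 24.8). Most of the 29 cells also carried Prox1, as given below, and doublets remain in that library. Their identity as blood endothelium is therefore uncertain. Prox1 was also seen in venous-type cells of day 21, at a lower level. Timp4 cells had 7 UMIs in Vegfc CRE, 6 of them in 1 cell, and none at day 21, so the Vegfc CRE venous-type level was 16.6-fold (7.98 to 41.6) that of Timp4 cells. At day 21 the venous-type and Clca3a1-led levels could not be separated, with a ratio of 0.705 (0.317 to 1.37).

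The untreated library was mostly leukocytes: 400 of its 689 cells were T or NK cells, 110 B or plasma cells and 54 dendritic cells. Of its 26 mural-class cells, 20 held at least 3 reticular stroma markers. Which tissue its endothelial cells came from was not tested. It had only 7 venous-type cells, yet these held 207 Glycam1 UMIs. They were distributed as 152, 39, 10, 6, 0, 0 and 0 UMIs over the 7 cells. The same cells held 44 Sele UMIs (22, 20 and 2 in 3 cells), 57 Ackr1 UMIs (32, 17, 5 and 3 in 4 cells), 50 Icam1, 43 Cd34, 16 Podxl, 14 Selp and 8 Vcam1 UMIs. A Prox1 UMI and a Madcam1 UMI were found in none of them. Such a small number of cells gives no level to compare with the later days.

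Madcam1, the addressin, was rare, with 72 UMIs in all 4 libraries. Clca3a1-led cells held 4 UMIs in 3 cells at day 21 and 40 UMIs in 14 cells at day 7, or 0.41 against 3.79 CPM, 9.24-fold lower at day 21 (3.34 to 35.6). Venous-type cells of Vegfc CRE had 5 UMIs in 5 cells, and those of the Prox1 eGFP libraries had none. Outside endothelium it was found at day 0 in 1 mural-class cell (6 UMIs) and in 3 dendritic cells (4 UMIs), and at day 21 in 1 monocyte (4 UMIs). A further 4 cells held 1 UMI each: a muscle progenitor cell at day 21, another at day 7, and a fibroblast and a cell of an unnamed cluster in Vegfc CRE. Its levels are too near those of single cells to order the classes.

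Of the transmembrane sialomucins, Cd34 was higher in both blood endothelial classes than in lymphatic cells, and Podxl at day 21 stood above Clca3a1-led and Lyve1-led cells in Timp4 cells but not in venous-type cells. Cd34 had its highest level in Timp4 cells of Vegfc CRE, 680.3 CPM (643 to 719), followed by venous-type cells of Vegfc CRE at 644 CPM (624 to 665), and the intervals of these neighbours overlap. Timp4 and venous-type cells of day 21 stood at 579.7 and 530.3 CPM. Clca3a1-led lymphatic cells had 121 Cd34 UMIs at day 21 and 375 at day 7, or 12.4 and 35.5 CPM, 2.86-fold lower at day 21 (2.33 to 3.55). Lyve1-led cells had 17.1 CPM at day 21 and 25 CPM at day 7, so the order of the lymphatic clusters turned round: Clca3a1-led over Lyve1-led was 0.724 (0.561 to 0.933) at day 21, against 1.42 (1.18 to 1.73) at day 7.

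Podxl differed little between days in the clusters of lymphatic cells that were not dividing. It had 132 CPM at day 21 and 109.9 CPM at day 7 in Clca3a1-led cells, a ratio of 1.2 (1.11 to 1.3), and 152 and 155 CPM in Lyve1-led cells, a ratio of 0.981 (0.9 to 1.07). Dividing cells had 55.5 CPM at day 21 and 78.2 CPM at day 7 (0.71, 0.54 to 0.921). Its highest levels were in Timp4 cells, at 367 CPM (340.0 to 396) in Vegfc CRE and 292 CPM (248 to 341) at day 21. Venous-type cells lay below them in the same library, 2.17-fold (1.97 to 2.39) in Vegfc CRE and 2.39-fold (1.82 to 3.16) at day 21. At day 21 venous-type cells had 122 CPM of Podxl, and their ratio to Clca3a1-led cells, 0.924 (0.732 to 1.15), spans 1. The Cd34 ratio of these blood endothelial classes had intervals that span 1, with venous-type over Timp4 at 0.947 (0.888 to 1.01) in Vegfc CRE and 0.915 (0.784 to 1.07) at day 21. Outside endothelium the highest Podxl level was 37.9 CPM, in the 52 macrophages of day 21. This level rests on few UMIs, since all leukocytes of that library held 28 Podxl UMIs. Of 11 leukocyte groups of at least 30 cells, 6 had none.

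Both selectins were highest in venous-type cells. Selp, which venular endothelium stores for rapid release, had 348 UMIs at day 21 (506 CPM, 454 to 562) and 1591 UMIs in Vegfc CRE (258 CPM, 246 to 271). The next group, Clca3a1-led cells of day 7, stood at 44.7 CPM, and its interval (40.7 to 48.9) overlaps that of Timp4 cells of Vegfc CRE (28.4 to 46.6). Within a library, venous-type cells were 7.04-fold (5.51 to 9.13) above Timp4 cells in Vegfc CRE and 19.2-fold (11.3 to 35.5) above them at day 21. Sele, transcribed on demand in inflamed endothelium, had 155 UMIs in venous-type cells at day 21 (225 CPM, 191 to 264) and 433 UMIs in those of Vegfc CRE (70.3 CPM, 63.8 to 77.2). Venous-type over Timp4 was 16.0-fold (8.07 to 37.4) for Sele in Vegfc CRE. Among groups of at least 30 cells, the next Sele level was in monocytes of day 21, at 27.1 CPM from 19 UMIs.

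Lymphatic cells carried both selectins at lower levels, and mostly in the Clca3a1-led cluster. Sele had 110 UMIs at day 21 and 98 at day 7 there, or 11.3 and 9.28 CPM, a ratio of 1.21 whose interval (0.917 to 1.61) spans 1. Selp had 32.0 CPM at day 21 and 44.7 CPM at day 7, 1.4-fold lower at day 21 (1.21 to 1.62). Clca3a1-led over Lyve1-led cells was 9.65-fold (4.9 to 21.7) for Sele and 6.32-fold (4.52 to 9.05) for Selp at day 21. At day 7 it was 19.2-fold (6.38 to 94.8) for Sele, with 3 UMIs in Lyve1-led cells, and 4.48-fold for Selp. In neutrophils of Vegfc CRE, 56 of 1358 cells had a Selp UMI (20.5 CPM). A marker of the platelet list was seen in 25% (14.4 to 38.4) of those cells and in 13.1% (11.3 to 15.1) of the other neutrophils. Only 1 of the 5 platelet markers was detected in the cells with Selp, and 3 in the others. Venous-type markers were seen in 76.8% (63.6 to 87) of those cells and 65.8% (63.2 to 68.4) of the others. Of the 9 such markers, 4 were detected in the 56 cells with Selp and 8 in the 1302 others. The cell numbers differ widely, so these 2 counts cannot be compared. The list was summed, and which marker carried its level is not given. Pan-endothelial markers were seen in only 10.7% (4.03 to 21.9) and 8.22% (6.78 to 9.84). The venous-type list stood at 1319 and 931 CPM, and the pan-endothelial list at 74.8 and 52.7 CPM. The part of these markers in the Selp UMIs was not tested.

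**Figure D3:**
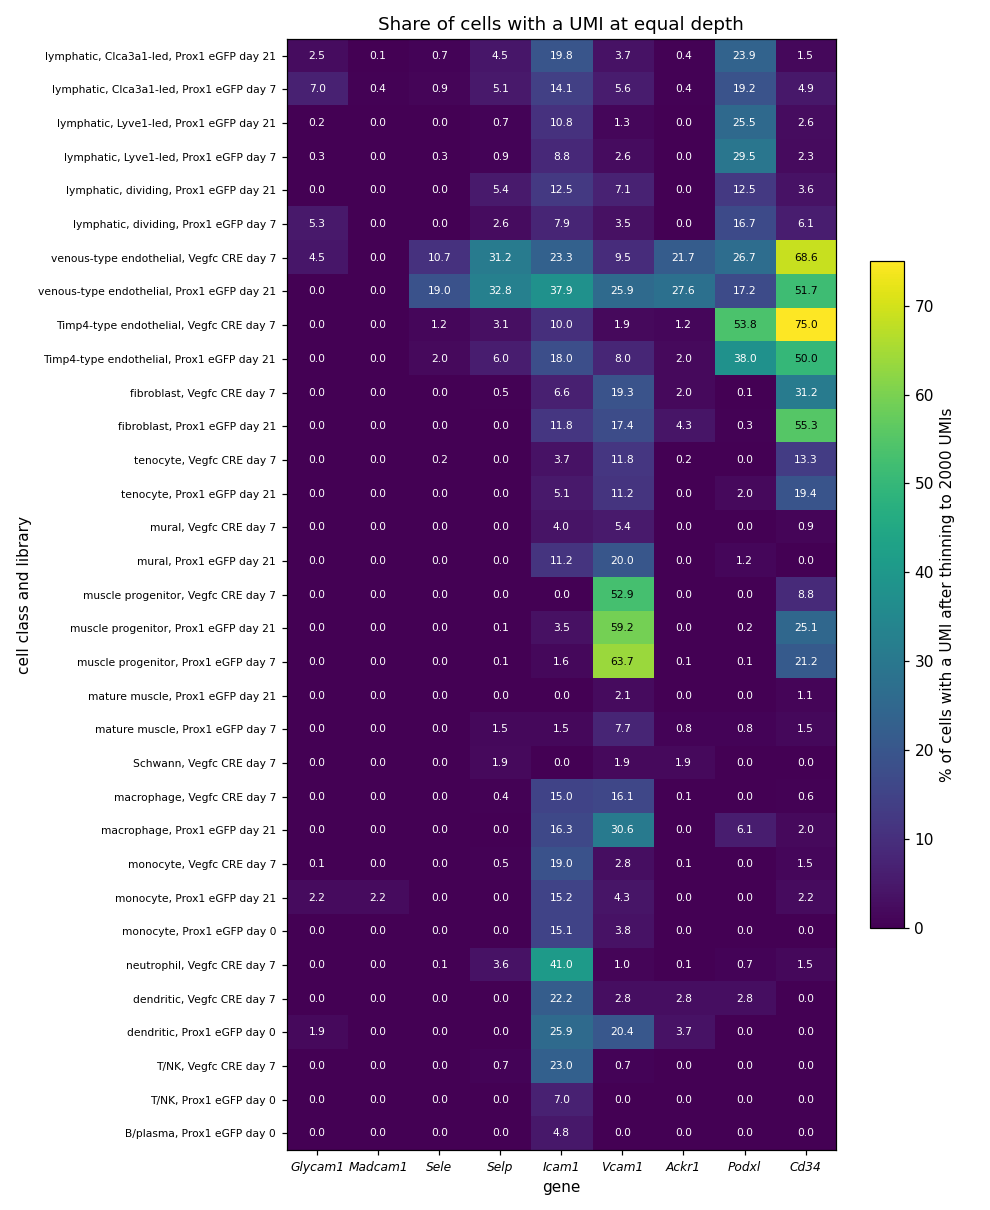
Share of cells (percent) with a UMI of each gene in each class by library after every cell was thinned to 2000 UMIs, for classes of at least 30 cells. Glycam1 was seen in 2.45% of Clca3a1-led cells at day 21, 6.95% at day 7 and 4.55% of venous-type cells of Vegfc CRE.

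Of the integrin ligands, Icam1 was widespread and Vcam1 was mainly in stroma, which here includes muscle progenitor cells. Icam1, the ligand of LFA-1 and Mac-1, was highest in neutrophils of Vegfc CRE, with 1814 UMIs in 595 of 1358 cells (573 CPM, 547 to 599.9), and in venous-type cells of day 21 (551 CPM, 497 to 609); these intervals overlap. T and NK cells had 202 CPM in Vegfc CRE and 60.2 CPM at day 0, where 103 of 235 UMIs were in 1 cell. Clca3a1-led lymphatic cells had 158 CPM at day 21 and 96.6 CPM at day 7, a ratio of 1.63 (1.51 to 1.77), and Lyve1-led cells 76.4 and 44.1 CPM, a ratio of 1.73 (1.5 to 2.01). Dividing lymphatic cells had 102 CPM at day 21 and 30.3 CPM at day 7 (3.37, 2.64 to 4.28). Icam1 was thus higher at day 21 in all 3 lymphatic clusters. Muscle progenitor cells showed the same direction, with 23.9 CPM at day 21 and 9.33 CPM at day 7 (2.56, 2.22 to 2.96).

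Vcam1, the ligand of the integrin α4β1, was highest, among groups of at least 30 cells, in muscle progenitor cells, at 339 CPM in Vegfc CRE and 653 and 573 CPM in Prox1 eGFP days 7 and 21. Macrophages had 136 CPM in Vegfc CRE and 199 CPM at day 21, and fibroblasts had 118 CPM in Vegfc CRE and 115 CPM at day 21. The 20 of 26 mural-class cells of day 0 that held at least 3 reticular stroma markers (such as Ccl19 and Cxcl13) had 699.7 CPM (598 to 814). The other 6 had 565 CPM (340.5 to 883), and these intervals overlap. In endothelium, venous-type cells of day 21 led with 193 CPM (162 to 229), and those of Vegfc CRE had 77.4 CPM. Clca3a1-led cells had 39.6 CPM at day 21 and 55.2 CPM at day 7, 1.39-fold lower at day 21 (1.22 to 1.59), and Lyve1-led cells 9.6 and 17.7 CPM, 1.84-fold lower. Dividing cells went the other way, with 67.9 CPM at day 21 and 29.3 CPM at day 7, a ratio of 2.32 (1.75 to 3.04).

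Among endothelial classes, Ackr1 was found mainly in venous-type cells. It had 190 UMIs at day 21 (276 CPM, 238 to 318) and 1275 UMIs in Vegfc CRE (207 CPM, 196 to 219). Clca3a1-led lymphatic cells had 8 UMIs at day 21 and 12 at day 7, so venous-type cells of day 21 were 337-fold (167 to 791) above them. Timp4 cells had 27.9 CPM in Vegfc CRE and 60.2 CPM at day 21, but 48 of 51 and 29 of 32 UMIs sat in 1 cell each. Outside endothelium, 169 of 1427 fibroblasts of Vegfc CRE (7.99 CPM) and 53 of 310 of day 21 (17.1 CPM) had an Ackr1 UMI, while macrophages of Vegfc CRE had 5 UMIs in 914 cells. Among groups of at least 30 cells, higher levels came from few UMIs in monocytes of day 21 (24 UMIs, 34.2 CPM) and dendritic cells of day 0 (15 UMIs, 21.7 CPM). Mature muscle of day 7 had 18.9 CPM.

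How did the 9 genes compare between day 21 and day 7 as a set? A gene was counted where it differed at least 2-fold and had at least 10 UMIs over both libraries. In Clca3a1-led cells 3 of 9 members were at least 2-fold lower at day 21 (Glycam1, Madcam1 and Cd34), where 6.87% of 12759 genes were, and 0 of 9 were at least 2-fold higher, where 3.6% were. The median log2 ratio was -0.48 over the members and -0.18 over all genes. In the whole lymphatic class the same 3 genes were lower (background 7.83%) and 0 higher (3.75%), with medians of -0.45 and -0.17. After thinning 1 was lower, in cells gated by marker UMIs Cd34 turned to a log2 ratio of 0.59, next to -1.03, and 2 were higher in gated cells, with doublet calls kept or with the members among the variable genes. In Lyve1-led cells Glycam1 was lower and Sele, with 9 and 3 UMIs, was higher, among 7 members with enough UMIs, against backgrounds of 6.28% lower and 3.36% higher. Glycam1 had 6 UMIs at day 21 and 28 at day 7 there, most of the 28 in 1 cell. In dividing cells Glycam1 and Sele were lower and Icam1 and Vcam1 higher, again among 7, against 10.9% lower and 4.13% higher. Since the members were chosen with these levels in view, nothing is read from the counts beyond their direction.

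**Figure D4:**
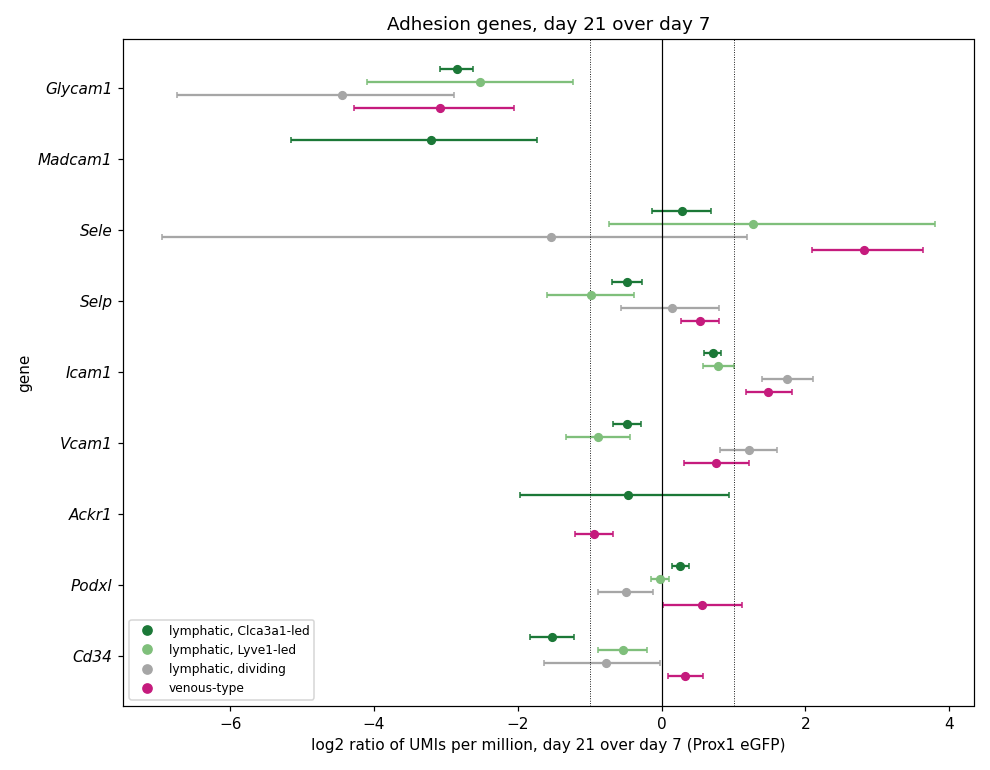
Log2 ratio of day 21 over day 7 (Prox1 eGFP) of each gene in Clca3a1-led, Lyve1-led and dividing lymphatic cells and in venous-type cells, with exact 95% intervals for counting error; dotted lines mark a 2-fold difference, and genes with under 10 UMIs or no bound are not drawn. Glycam1 lies at -2.85 in Clca3a1-led cells and is below 0 in all 4 classes, while Icam1 is above 0 in all 4. In Lyve1-led cells the Glycam1 value rests on 6 UMIs at day 21 and 28 at day 7, most of the 28 in 1 cell.

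Venous-type cells of day 21 and day 7 could be compared only with 29 cells at day 7, below the minimum of 30 cells set for a comparison, so these values are an addition made after the cell numbers were seen. Glycam1 was again lower at day 21, by 8.48-fold (4.18 to 19.5), with 9 UMIs at day 21. Sele had 155 UMIs at day 21 and 17 at day 7, or 225 against 31.9 CPM, a ratio of 7.05 (4.26 to 12.4). Icam1 had 551 CPM at day 21 and 197 CPM at day 7 (2.79, 2.24 to 3.5), Vcam1 193 and 115 CPM (1.69, 1.24 to 2.32), and Selp 506 and 349.5 CPM (1.45, 1.21 to 1.74). Ackr1 had 276 CPM at day 21 and 528 CPM at day 7, 1.91-fold lower at day 21 (1.59 to 2.31). These values rest on few cells: without the top cell of each library the Sele log2 ratio was 4.14, and without the 10 top cells 1.59, next to 2.82, and that of Ackr1 was -0.11 without 10 cells, next to -0.94. Of 8 members with enough UMIs, 1 was at least 2-fold lower and 2 were higher, where 11.6% and 6.81% of 8775 genes were, with medians of 0.55 over the members and -0.17 over all genes.

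Markers of these cells differed by day as well. Prox1 stood at 189 CPM in venous-type cells at day 21 and at 923 CPM at day 7, with a Prox1 UMI in 40.3% and 93.1% of the cells, and the venous marker Vwf at 876 and 2080 CPM. The median depth was 9101 UMIs per cell at day 21 and 19706 at day 7. The part of these values in the member differences was not tested. With venous-type and Timp4 cells joined, 119 cells of day 21 and 33 of day 7 met the minimum: Glycam1 was 12.7-fold lower at day 21 (6.25 to 29.1), Ackr1 2.45-fold lower (2.05 to 2.93), and Sele 4.98-fold higher (3.02 to 8.76), 2 lower and 1 higher of 8, against 11.2% and 7.65% of all genes. Venous-type cells made up 62 of the 119 joined cells at day 21 and 29 of the 33 at day 7, so the joined values also carry the mix of classes.

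Vegfc CRE and Prox1 eGFP at day 7 could be compared in blood endothelium. In venous-type cells (498 in Vegfc CRE and 29 in Prox1 eGFP) Glycam1 stood at 63.6 against 111 CPM, 1.74-fold lower in Vegfc CRE (1.3 to 2.3), and Ackr1 at 207 against 528 CPM, 2.55-fold lower (2.23 to 2.91). Of the Ackr1 UMIs of Prox1 eGFP, 88.6% were in 10 of the 29 cells. Sele had 70.3 CPM in Vegfc CRE and 31.9 CPM in Prox1 eGFP (2.2, 1.36 to 3.81), Podxl 169 and 82.7 CPM (2.05, 1.51 to 2.83), and Cd34 644 and 421 CPM (1.53, 1.34 to 1.76). Selp had 258 CPM in Vegfc CRE and 349.5 CPM in Prox1 eGFP, Icam1 149 and 197 CPM, and Vcam1 77.4 and 115 CPM. With the 10 top cells left out of each library, the log2 ratio was 1.48 for Glycam1, next to -0.80 with all cells, and 0.61 for Ackr1, next to -1.35, so both directions turned, and after thinning that of Sele was 0.17, next to 1.14. At least 2-fold lower was 1 of 8 members, against 16.9% of 11578 genes, and at least 2-fold higher were 2, against 7.9%. In the joined class (677 and 33 cells) the counts were the same, 1 and 2 of 8, against 14.9% and 7.12%.

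Other transcripts differed between these cells as well. Prox1 stood at 3.73 CPM in venous-type cells of Vegfc CRE and 923 CPM in those of Prox1 eGFP, and the 10 lymphatic markers summed to 84.1 CPM in Vegfc CRE, with Reln at 0, and 1261 CPM in Prox1 eGFP. Vwf stood at 263 CPM in Vegfc CRE and 2080 CPM in Prox1 eGFP, and the leukocyte marker Ptprc at 6.98 CPM and 0. Their part in the member differences was not tested. In muscle progenitor cells (36 in Vegfc CRE and 3625 in Prox1 eGFP), Vcam1 had 339 CPM in Vegfc CRE and 653 CPM in Prox1 eGFP, and Cd34 59.3 and 121 CPM. Of 4 members with enough UMIs there 1 was at least 2-fold lower and 0 higher, against 13% and 11.6% of all genes. Between days 21 and 7 the muscle progenitor cells had 1 of 6 members lower and 1 higher, against 11.3% and 4.5%.

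Were the members found in the same cells? Among Clca3a1-led cells of day 7, Madcam1 was seen in 10 of the 75 cells with a Glycam1 UMI (13.3%, 6.58 to 23.2) and in 4 of the 459 without (0.871%, 0.238 to 2.22). Vcam1 was seen in 37.3% (26.4 to 49.3) of the cells with Glycam1 and 19.8% (16.3 to 23.8) of the others. Podxl went the other way, at 58.7% (46.7 to 69.9) with Glycam1 and 75.8% (71.6 to 79.7) without. The cells with Glycam1 were slightly deeper, with a median of 21446 UMIs against 18888. After thinning to 2000 UMIs, Podxl was seen in 5.41% of the cells with Glycam1 and 20.2% of the others, and Vcam1 in 18.9% and 4.65%. Here the cells with Glycam1 are those that still held a Glycam1 UMI after thinning, fewer than the 75. The thinned shares of this small group rest on few cells, and no interval is given for them. Cells of 1 library are not replicates, so these intervals describe that library.

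In venous-type cells of Vegfc CRE the cells with Glycam1 carried the venular genes more often. Selp was seen in 53 of 57 cells with Glycam1 (93%, 83 to 98.1) and in 48.1% (43.3 to 52.8) of the others, Ackr1 in 63.2% (49.3 to 75.6) and 29.5% (25.3 to 34), and Sele in 47.4% (34 to 61) and 23.8% (19.9 to 28.1). Podxl was seen in 64.9% (51.1 to 77.1) and 64.2% (59.5 to 68.7), and Cd34 in 94.7% and 94.6%. After thinning, the intervals of the cells with and without Glycam1 overlapped for Sele, at 18.2% (5.19 to 40.3) and 10.4% (7.76 to 13.5), and for Ackr1, at 40.9% (20.7 to 63.6) and 20.8% (17.2 to 24.8), and for Selp, at 54.5% (32.2 to 75.6) and 30.1% (25.9 to 34.5). These groups were set anew after thinning, which left fewer than 57 cells with Glycam1. The selectins went together too: of 132 venous-type cells with Sele, 87.9% (81.1 to 92.9) had Selp, against 40.7% (35.6 to 45.9) of the cells without Sele. After thinning, which left fewer than 132 cells with Sele, Selp was seen in 63.5% (49 to 76.4) of cells with Sele and 27.3% (23.2 to 31.8) of the others. In Clca3a1-led cells Selp was in 41% of cells with Sele and 12.1% of those without at day 21, and in 63.6% and 29.3% at day 7.

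The genes with the most similar pattern to each member were taken over 33 named groups of class and library, by Pearson's correlation of log2(CPM + 1). The groups share libraries and depth, so the values are descriptions. For Glycam1 they were Dnah6 (0.835), Ccnjl (0.796) and Ccser1 (0.767), for Madcam1 Cubn (0.771), Dleu7 (0.767) and Cacna1b (0.743), and for Ackr1 Hoxb9 (0.816), Lhx6 (0.803) and Gpr1 (0.774). Sele was most like Hoxb9 (0.903), Syt15 (0.896) and Selp (0.882), and Selp most like Hoxb6 (0.897), Sele and Hoxb9 (0.866). Podxl followed the endothelial genes Bcl6b (0.959), Nova2 (0.956) and Robo4 (0.955), Cd34 Ebf3 (0.862), Dchs1 (0.854) and Mcc (0.845), Icam1 H2-T23 (0.872), Hpcal1 (0.867) and Mgat4a (0.864), and Vcam1 Colec12 (0.820), Pde10a (0.802) and Fgfr1 (0.783). Between members, Glycam1 and Madcam1 correlated at 0.64.

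The other genes of the pathway were described from fixed lists. In Clca3a1-led cells at day 21 against day 7, 2 of 10 genes of sialomucin and L-selectin ligand synthesis were at least 2-fold lower and 0 higher, with a median log2 ratio of -0.29, where 6.87% of all genes were lower and 3.6% higher and their median was -0.18. They were the fucosyltransferase gene Fut4, the lowest (2.97 against 7.2 CPM), and the sulfotransferase gene Chst2 (7.99 against 18 CPM). The NF-kappaB list, which covers factors and their targets, had 2 lower and 0 higher of 10, with a median of -0.58: the inhibitor gene Nfkbie was lowest (19.5 against 55.6 CPM) followed by Birc3 (9.12 against 20.2 CPM), and the inhibitor gene Nfkbia was highest (1089 against 895 CPM). Chst2 and Birc3 are named to complete their counts and were chosen after their values were seen, as is the hyaluronan receptor gene Cd44 next. Of the inducing cytokines, only Tnf (3 against 30 UMIs) and Ltb (11.9 against 43.8 CPM) had enough UMIs, and both were lower. Leukocyte partners, the integrins and selectin ligands of leukocytes, had 2 lower and 0 higher of 5 (Itga4, 3 against 11 UMIs, and Cd44, 5 against 12 UMIs), with a median of -0.79. Cytokine and lymphotoxin receptors had 1 lower and 0 higher of 7 (Tnfrsf1b, 2.25 against 4.83 CPM), with a median of -0.33. Junction genes had 0 and 0 of 9 and a median of -0.18, with Plvap lowest (861 against 1428 CPM) and the caveolar gene Cav1 highest (455 against 401 CPM).

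In venous-type cells at day 21 against day 7 the NF-kappaB list had 0 lower and 1 higher of 10, where 11.6% of all genes were lower and 6.81% higher, with a median of 0.50 against -0.17 over all genes; Nfkb2, a subunit gene, was highest (33.4 against 9.4 CPM) and Nfkbie lowest (8.72 against 15 CPM). Sialomucin synthesis had 1 lower and 1 higher of 8, with Cd300lg highest (79.9 against 35.7 CPM) and the glycosyltransferase Gcnt1 lowest (26.1 against 65.8 CPM). Receptors had 1 lower and 0 higher of 8, with the interleukin-4 receptor gene Il4ra lowest (52.3 against 150.3 CPM). In Vegfc CRE against Prox1 eGFP at day 7, venous-type cells had 1 lower and 1 higher of 10 in the NF-kappaB list (median 0.41, all genes -0.22), where 16.9% of all genes were lower and 7.9% higher, with Nfkbia lowest (289.8 against 868 CPM) and Nfkb2 highest (35.7 against 9.4 CPM). Sialomucin synthesis had 2 lower and 2 higher of 10, with Gcnt1 lowest (6.98 against 65.8 CPM) and Cd300lg highest (116 against 35.7 CPM). Among inducing cytokines, Il1b had 406 UMIs in Vegfc CRE (65.9 CPM) and 0 in Prox1 eGFP, where a count of 0 over 29 cells limits the comparison.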

How the data were processed

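The 4 single-cell libraries were made with the Single Cell 3' v3 chemistry, per the labels. The deposited matrices hold raw UMI counts for genes and barcodes; the submitters' processing notes name Cell Ranger 5.0.1 and mm10. Cell types were not taken from the authors. The libraries' lists held 27998 (Prox1 eGFP day 7) or 32285 features, and the 27040 shared identifiers held at least 99% of the UMIs.

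Barcodes needed 500 genes, 1000 UMIs and a mitochondrial share under 15%. This removed 1640 barcodes of Vegfc CRE and 27, 179 and 316 of Prox1 eGFP days 0, 7 and 21. Scrublet called 101, 1, 0 and 85 doublets in that order, which were removed; it did not work on day 7, where doublets remain. Counts were scaled to 10000, 2000 variable genes (without the 9 members, clipped at 10 SD) gave 30 components, 15 neighbours and 28 Leiden clusters at resolution 1.0 (Python 3.11.15, scanpy 1.11.5, leidenalg 0.10.2, igraph 0.11.9). A cluster was named from at least 3 markers that were at least 2-fold higher and in at least 20% of its cells; 5 clusters stayed unnamed. The class names are rebuilt here.

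UMIs were summed per class and library. CPM has exact Poisson, ratios exact conditional binomial and shares exact Clopper-Pearson intervals at 95% (scipy 1.17.1, numpy 2.4.6), covering counting error only; the ratio step was tested on simulated data. For 0 UMIs the limit is that of 3 counts. Comparisons needed 30 cells in both libraries and 10 UMIs per gene. With 1 library per group no test was possible. Alternatives were resolution, cell filter, doublets, the members among the variable genes, TMM factors (edgeR 4.0.16, R 4.3.3), thinning to 2000 UMIs, per-cell means, marker gating, dividing cells left out and UMI minimums; leaving out top cells and the 29-cell comparison were added after the data were seen.

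The members and lists were chosen with earlier results of these data known. All 9 members are named, the 3 genes most like each (over groups of at least 30 cells, among genes with at least 50 UMIs), and of each pathway list the genes with the highest or lowest ratio.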

Additional observations from a re-analysis of the deposited data

Results flagged for a closer look

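Members whose ratio between libraries ran in opposite directions in different cell classes, with neither interval crossing 1, are listed here for the 3 lymphatic clusters, venous-type and muscle progenitor cells, with the difference of their log2 ratios; the difference was not tested, since each class has 1 library per group.

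For day 21 against day 7 in Prox1 eGFP, Selp had a log2 ratio of 0.53 in venous-type cells, against -0.48 in Clca3a1-led and -0.98 in Lyve1-led lymphatic cells, which are 1.01 and 1.51 apart from it. Vcam1 had 0.75 in venous-type cells, and differed by 1.23 from Clca3a1-led cells (-0.48), by 1.63 from Lyve1-led cells (-0.88) and by 0.94 from muscle progenitor cells (-0.19). Vcam1 had 1.21 in dividing lymphatic cells, which are 1.69, 2.09 and 1.40 above these same 3 classes. Podxl had -0.49 in dividing cells, and lay 0.75 higher in Clca3a1-led cells (0.26) and 1.05 higher in venous-type cells (0.56). Cd34 had 0.33 in venous-type cells, 1.85 above Clca3a1-led cells (-1.52), 0.87 above Lyve1-led cells (-0.54) and 1.11 above dividing cells (-0.78). In muscle progenitor cells Cd34 had 0.22, which is 1.74 above Clca3a1-led, 0.76 above Lyve1-led and 1.00 above dividing cells. For Vegfc CRE against Prox1 eGFP at day 7, Cd34 had 0.61 in venous-type cells and -1.03 in muscle progenitor cells, 1.64 apart. The venous-type values rest on 29 cells at Prox1 eGFP day 7.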

How the results depend on the processing

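No paired analysis was possible because each group has 1 library, and for the same reason no replicate could be left out. On the log2 scale the lower Glycam1 level of day 21 kept its direction in every alternative run for the lymphatic class and its Clca3a1-led cluster. In the lymphatic class (-2.94) it was -3.20 at resolution 2.0, -4.64 with the members among the variable genes, -4.16 with doublet calls kept and -2.68 as a per-cell mean; in Clca3a1-led cells (-2.85) it was -3.12 at resolution 2.0, -2.62 after thinning and -2.53 as a per-cell mean. With the members among the variable genes or doublets kept, the lymphatic class of day 7 held 575 or 556 cells instead of 991. Of ratios of at least 2-fold, those that turned were Cd34 in gated lymphatic cells (0.59, was -1.03), Sele in Lyve1-led cells at resolution 0.5 (-0.12, was 1.27), and, for Vegfc CRE against Prox1 eGFP in joined blood endothelium, Sele after thinning (-0.02, was 1.03) and Podxl in gated cells (-0.82, was 1.06). Ackr1 turned to 0.66 in the joined class and 0.61 in venous-type cells without the 10 top cells of each library (were -1.43 and -1.35). The cause of these turns was not tested. Sele at day 21 against day 7 in venous-type cells (2.82) was 4.14 without the top cell, 1.59 without 10 and 1.81 after thinning. The count of members at least 2-fold higher in the lymphatic class (0) was 2 with the members among the variable genes, with doublets kept and in gated cells, and 1 with TMM factors; the count lower (3) was 1 after thinning. In joined blood endothelium of day 21 against day 7 the count lower (2) was 1 with the stricter filter, after thinning and in gated cells, and 0 without 10 cells, and the count higher (1) was 3 with TMM factors and without 10 cells, and 2 as a per-cell mean, in gated cells and without the top cell. For Vegfc CRE against Prox1 eGFP the count lower (1) was 2 as a per-cell mean, in gated cells and with dividing cells left out, and 0 without 10 cells, and the count higher (2) was 1 in gated cells and 6 without 10 cells. Gating took 1449 lymphatic cells at day 7, so it holds cells outside the lymphatic clusters. TMM factors moved the centre of day 21 against day 7 by -0.12 to -0.19 and of Vegfc CRE against Prox1 eGFP by -0.32 and -0.35. Of the single ratios under the alternatives, 458 stayed within the interval of the reported value, 163 left it, and the 6 above, of at least 2-fold, turned. Ratios under 2-fold were not counted as turned; among them Glycam1 in venous-type cells of Vegfc CRE against Prox1 eGFP (-0.80) was 1.48 without 10 cells. The few UMIs limit Madcam1, and the 29 cells limit every venous-type value of Prox1 eGFP day 7.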
